A study of Homo sapiens with 6 samples.

Results

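The genes described here carry the identity of plasma cells, the transcription programme of B cells and the signalling cascade below the antigen receptor of B cells. The list has 58 symbols, and 38 of them had a probe set with exactly 1 symbol in the platform annotation, out of 14884 genes measured in that way. They comprise 6 of 13 plasma cell genes, 13 of 16 B cell transcription factors and 19 of 29 genes of antigen receptor signalling, the last of which includes B cell surface receptors. The other 20 were not analysed here, namely PRDM1, JCHAIN, GPRC5D, ELL2, TENT5C, ITGA4 and ITGB7 among plasma cell genes, BACH2, ID2 and ID3 among transcription factors, and MS4A1, FCER2, FYN, PIK3AP1, SH2B2, PLCG2, PIK3CD, PRKCB, PTPN6 and INPP5D among signalling genes.

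The 6 arrays hold RNA of MM.1S, a human cell line of multiple myeloma, the cancer of plasma cells. Cells of 3 arrays were kept for 12 h in 10 µM ATRA, the retinoid all-trans retinoic acid that binds retinoic acid receptors, and cells of the other 3 arrays for 12 h in the solvent DMSO. Both groups had first received a 1 h pulse of Cfz, the usual abbreviation of the proteasome inhibitor carfilzomib, at a dose that the labels do not give. The data thus come from 1 cell line that carries Cfz exposure in both arms, the labels do not say that the arrays of a group were separate cultures, and p-values measure only the spread between these arrays, which may be technical.

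As background, a B cell reads antigen through its receptor. LYN and related kinases phosphorylate the receptor, SYK is recruited and activated, the adaptor BLNK assembles the downstream enzymes, and BCL10 together with MALT1 passes the signal to NF-kappaB. When a B cell becomes a plasma cell, factors such as PAX5, BCL6, SPIB and SPI1 that hold the B cell state are turned down, and antibody secretion takes over. Surface proteins kept on plasma cells, such as SLAMF7, serve as targets of myeloma antibodies.

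The labelled cell type was checked against marker genes. Of the plasma cell markers, 7 of 10 were measured, and 6 of these lay above a mean log2 intensity of 5.69, the 90th percentile of 37 measured markers of T, NK, myeloid, erythroid, epithelial and stromal cells. The exception was POU2AF1 at 4.13. Of the B cell markers, 5 of 12 were measured and 0 lay above that line, with CR2 the nearest at 5.11. The line served to mark dim probe sets, and intensities of different probe sets are not compared as amounts of RNA. CD28 at 10.9 and NCAM1 at 4.47 are among the 37 and also in the list of further plasma cell genes below. The line was not redrawn without them, so the marking of genes near it, such as CR2 and SWAP70, depends on this choice. By the line as drawn 19 of the 38 genes were dim. Of the 37 markers of other cell types 0 passed the test described next, where 3.8% of all genes did. An unadjusted p under 0.05 in limma was found for 2, both T cell markers, where 17.9% of all genes had one. The summed intensity of the 7 measured T cell markers was 2366 to 2616 with ATRA and 2727 to 2782 with DMSO, most of it from CD28 and TRAT1. The part of these markers in the results was not tested.

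Of these genes 4 passed the test of ATRA against DMSO, and all 4 belong to antigen receptor signalling. STAP1, an adaptor that acts below the B cell receptor, and FCRL2, an Fc receptor-like protein with inhibitory motifs, rose. The kinase SYK and SWAP70, which binds a lipid product of PI3 kinase and acts on RAC in activated B cells, fell. In bulk RNA of this kind, fewer cells with a transcript and less of it per cell cannot be told apart. These were 4 of 38 genes (10.5%) past an adjusted p of 0.05 in limma with Benjamini-Hochberg adjustment over all 14884 genes, where the same test called 3.8% of all genes. The genes and their role groups were chosen with earlier results of these data known. The shares given here and below for them are therefore no independent result. In each direction there were 2 of 38, beside 1.73% of all genes that rose and 2.07% that fell. An unadjusted p under 0.05 in limma was found for 15 of the 38, where 17.9% of all genes had one. The median log2 change over the 38 was -0.06, with 15 higher and 23 lower in mean, and the median over all genes was -0.01.

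**Figure D1:**
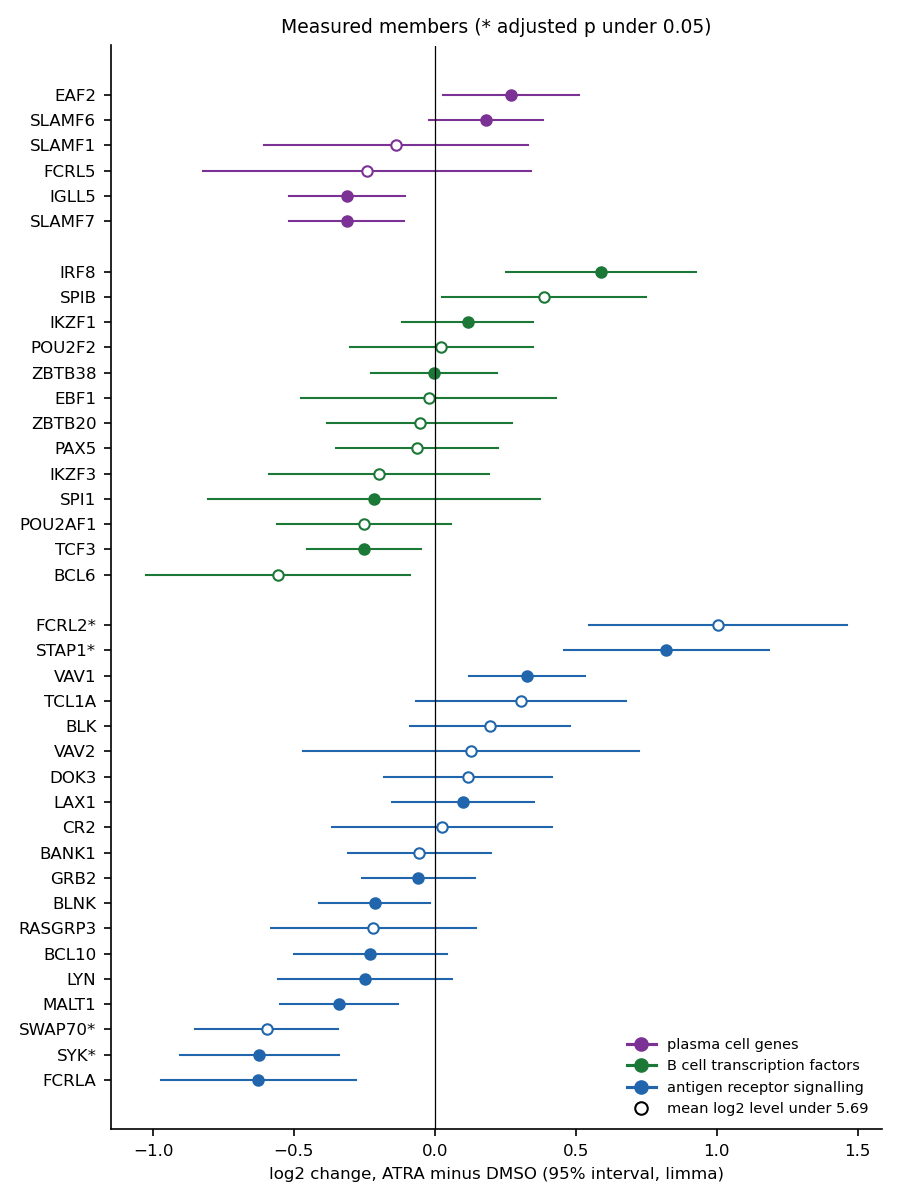
Log2 change (ATRA minus DMSO) of the 38 measured genes on the horizontal axis, 1 row per gene and sorted within the 3 role groups. Bars are 95% intervals from limma, open circles mark genes with a mean log2 level under 5.69, and the 4 genes with an asterisk, from FCRL2 at 1.01 to SYK at -0.62, passed an adjusted p of 0.05.

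STAP1 had intensities of 95.3, 130 and 140 on the 3 ATRA arrays, against 62.6, 69.9 and 71.7 on the 3 DMSO arrays. The ATRA arrays were all higher, and ATRA replicate 1 was the lowest of them. Mean intensity was 122 ± 23.3 with ATRA and 68.1 ± 4.83 with DMSO (SD, n = 3 arrays each), a 1.77-fold ratio of geometric means with a 95% interval of 1.37 to 2.28. The log2 change was 0.82 (SE 0.16, adjusted p = 0.0348 in limma).

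SYK, the kinase that docks on the phosphorylated receptor, had 64.3, 66.3 and 62.5 with ATRA, against 84.5, 104 and 111 with DMSO. The ATRA values were close together and all under the lowest DMSO value, that of DMSO replicate 1. The means were 64.4 ± 1.89 with ATRA and 99.8 ± 13.7 with DMSO (SD, n = 3 arrays each), and the log2 change was -0.62 (95% interval -0.91 to -0.34, SE 0.12, adjusted p = 0.0379 in limma).

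SWAP70 had 35.7, 33.0 and 37.0 with ATRA, against 56.3, 47.3 and 56.4 with DMSO. The groups did not overlap, but the mean log2 level of 5.43 lay under the line for dim probe sets. The log2 change was -0.60 (95% interval -0.85 to -0.34, SE 0.11, adjusted p = 0.0297 in limma).

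FCRL2 had 9.74, 15.9 and 11.5 with ATRA, against 5.21, 6.13 and 6.91 with DMSO. It showed the largest log2 change of the 38 genes, 1.01 (95% interval 0.55 to 1.46, SE 0.19, adjusted p = 0.0380 in limma). Its mean log2 level of 3.10 was under 3.58, the median of the markers of other cell types, so that FCRL2 cannot be told from an unexpressed gene by its level.

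Omitting 1 array at a time gave 6 fits, and each of these 4 calls was lost in 5 of them. STAP1 and FCRL2 passed only without ATRA replicate 1 (adjusted p = 0.0172 and 0.0453), SYK only without DMSO replicate 1 (0.0331) and SWAP70 only without DMSO replicate 2 (0.0396). In the other 5 fits of each gene the adjusted p went up to 0.121 for STAP1, 0.125 for FCRL2, 0.122 for SYK and 0.110 for SWAP70, and the direction held in all 6.

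**Figure D2:**
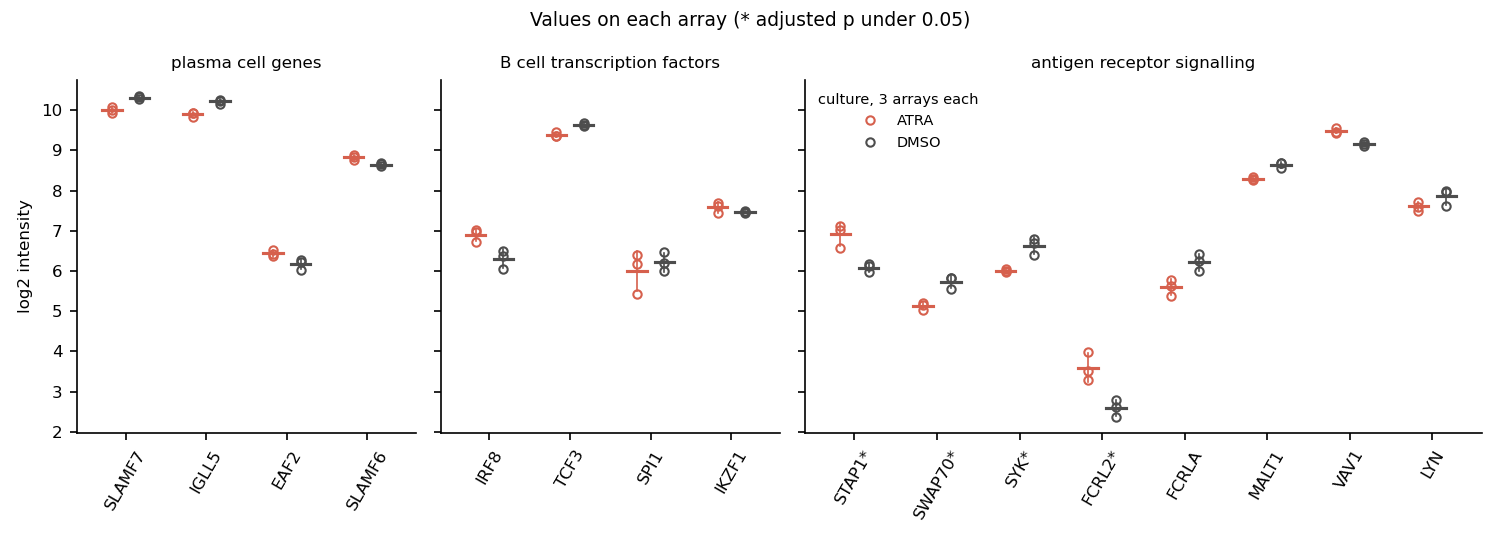
Log2 intensity on each array for the 4 genes that passed (asterisks) and the 12 brighter genes named for their differences that did not, with ATRA arrays left of DMSO arrays for each gene. Circles are single arrays, short lines group means and vertical bars SDs (n = 3 arrays each), and the groups are apart for STAP1, SYK, SWAP70 and FCRL2 but overlap for SPI1, IKZF1 and LYN.

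The upstream sequences of the 4 genes are shown because they are the ones past the test. Each is the 250 bases before the annotated start, from RefSeq on GRCh38.p14, printed 5′ to 3′ along the gene. Capitals mark matches, on either strand, to any of 4 motifs. These were the retinoic acid receptor half-site AGGTCA, the octamer ATGCAAAT bound by POU2F2 with POU2AF1, the ETS core GAGGAA bound by SPI1 and SPIB and the E-box CAGGTG bound by TCF3. Matches did not overlap each other in these 4 windows. STAP1 is at chr4:67558477-67558726 and SWAP70 at chr11:9663827-9664076, both on the plus strand, SYK at chr9:90801350-90801599 on the plus strand and FCRL2 at chr1:157777133-157777382 on the minus strand.
STAP1: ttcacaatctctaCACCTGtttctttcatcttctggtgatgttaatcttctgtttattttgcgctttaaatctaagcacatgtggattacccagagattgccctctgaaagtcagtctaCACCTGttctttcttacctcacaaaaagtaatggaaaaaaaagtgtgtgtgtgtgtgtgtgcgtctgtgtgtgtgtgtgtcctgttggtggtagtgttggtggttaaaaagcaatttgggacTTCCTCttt
FCRL2: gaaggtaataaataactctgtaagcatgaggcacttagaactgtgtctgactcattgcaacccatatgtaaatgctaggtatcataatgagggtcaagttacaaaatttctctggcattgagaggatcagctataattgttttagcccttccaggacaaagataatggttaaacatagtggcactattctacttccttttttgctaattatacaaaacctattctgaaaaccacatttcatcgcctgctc
SYK: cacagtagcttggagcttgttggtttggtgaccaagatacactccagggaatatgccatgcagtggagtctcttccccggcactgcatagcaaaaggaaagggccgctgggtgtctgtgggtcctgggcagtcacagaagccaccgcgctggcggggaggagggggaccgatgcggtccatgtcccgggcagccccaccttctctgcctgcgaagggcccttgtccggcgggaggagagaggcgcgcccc
SWAP70: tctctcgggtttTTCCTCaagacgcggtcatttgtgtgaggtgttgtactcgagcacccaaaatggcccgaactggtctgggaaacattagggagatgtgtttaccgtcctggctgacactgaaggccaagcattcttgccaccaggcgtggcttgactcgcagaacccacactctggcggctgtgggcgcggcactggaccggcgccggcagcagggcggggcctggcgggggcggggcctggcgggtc

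STAP1 held 2 E-boxes and 1 ETS core, SWAP70 1 ETS core, and SYK and FCRL2 0 matches, which says only that these letters are not in these windows. A promoter was given for 31 of the 38 genes. GAGGAA was in 12 of the 31 (38.7%), against 23.4% of 27305 promoters of the same length. CAGGTG was in 7 (22.6%, against 17.5%) and AGGTCA in 1 (3.23%, against 12.1%), that of SPIB, while ATGCAAAT was in 0 (against 1.66%). A match is a run of letters and no measured binding.

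Plasma cell genes differed by small amounts, in both directions. None of the 6 passed in limma, where 3.8% of all genes did. An unadjusted p under 0.05 in limma was found for 3 (where 17.9% of all genes had one), and the median change was -0.19. SLAMF7, a SLAM family receptor and antibody target in myeloma, had 1025, 1072 and 977 with ATRA, against 1236, 1286 and 1295 with DMSO. IGLL5, an immunoglobulin lambda-like gene, had 980, 915 and 979 with ATRA, against 1207, 1138 and 1224 with DMSO. In both genes every ATRA array was under every DMSO array, and both log2 differences were -0.31 (95% intervals -0.52 to -0.11). The adjusted p was 0.112 for SLAMF7 and 0.114 for IGLL5 in limma. With eBayes fitted with a trend and robustly, the adjusted p was 0.000692 for SLAMF7 and 0.000857 for IGLL5, and without the dimmer 50% of genes 0.0293 and 0.0302. Only these 2 of 15 alternative fits called either gene, and in others the adjusted p in limma reached 0.265 for SLAMF7 and 0.268 for IGLL5. IGLL5 lies within the immunoglobulin lambda locus and shares sequence with lambda constant genes, so signal from their transcripts cannot be told apart from its own here.

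EAF2, a partner of the ELL family of elongation factors, had 85.7, 82.9 and 92.6 with ATRA, against 77.4, 65.4 and 74.2 with DMSO (log2 difference 0.27, adjusted p = 0.229 in limma). SLAMF6, another SLAM family receptor, had 472, 434 and 457 with ATRA, against 408, 403 and 389 with DMSO (0.18, adjusted p = 0.336 in limma). Both were higher on every ATRA array than on any DMSO array. SLAMF6 and SLAMF7, both in the SLAM cluster of chromosome 1, thus had differences of opposite sign, and the contrast between them was not tested. SLAMF1 of the same cluster and FCRL5, an Fc receptor-like protein of plasma cells, were dim, at mean log2 levels of 2.41 and 2.48, and their differences of -0.14 and -0.24 lay within overlapping values. Each had DMSO replicate 1 as its highest array, at 7.72 and 9.06.

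Among B cell transcription factors 0 of 13 passed in limma, where 3.8% of all genes did, and 4 had an unadjusted p under 0.05, where 17.9% of all genes did. Their median change was -0.05. IRF8, which acts with SPI1 in B cell and myeloid development, was the farthest up, with 129, 105 and 125 on ATRA arrays, against 82.6, 90.6 and 66.5 on DMSO arrays. The groups did not overlap, and the log2 difference of 0.59 (95% interval 0.25 to 0.93) had an adjusted p of 0.0771 in limma. It had 0.0136 with a trend and robust eBayes and 0.0336 without the dimmer 50% of genes. Only these 2 of 15 alternative fits called IRF8, and in others its adjusted p in limma reached 0.197. TCF3, the E2A protein that pairs with other helix-loop-helix factors, had 699, 650 and 655 with ATRA, against 774, 822 and 789 with DMSO. Its ATRA arrays were all lower, by 0.25 on the log2 scale (adjusted p = 0.189 in limma, 0.00608 with a trend and robust eBayes). TCF3 was called in that 1 of 15 alternative fits, and in others its adjusted p in limma reached 0.387.

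SPI1, the ETS factor PU.1, had 43.3, 84.8 and 71.8 with ATRA, against 73.4, 88.1 and 63.8 with DMSO. Its groups overlapped, and ATRA replicate 1 was the lowest of all 6 arrays. The log2 difference of -0.22 (adjusted p = 0.720 in limma) was 0.068 without that array. IKZF1, the Ikaros factor that lenalidomide marks for degradation, had 173, 206 and 198 with ATRA, against 174, 177 and 181 with DMSO (0.12, adjusted p = 0.612 in limma), also with overlap. ZBTB38, a zinc finger repressor, averaged 304 ± 14.7 with ATRA and 305 ± 19.1 with DMSO (SD, n = 3 arrays each), and the 95% interval of its log2 difference was -0.23 to 0.22.

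The remaining 8 transcription factors were dim. In limma 0 of them passed, where 3.8% of all genes did. SPIB and BCL6, 2 of the 8, had an unadjusted p under 0.05 in limma, where 17.9% of all genes did. SPIB, a relative of SPI1, was higher on every ATRA array (34.6, 30.9 and 29.2, against 27.7, 19.3 and 26.3 with DMSO), by 0.39 on the log2 scale (adjusted p = 0.248 in limma). BCL6, the repressor of germinal centre B cells, had 8.86, 6.36 and 5.39 with ATRA, against 10.8, 10.8 and 8.26 with DMSO, and ATRA replicate 1 overlapped the DMSO range (-0.56, adjusted p = 0.203 in limma). POU2AF1, the coactivator of octamer factors, was lower on every ATRA array (-0.25, adjusted p = 0.383 in limma). IKZF3, POU2F2, PAX5, EBF1 and ZBTB20 had overlapping groups and log2 differences between -0.20 and 0.02. Levels of PAX5 and EBF1, which define B cells, were 3.86 and 2.71 on the log2 scale.

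Beyond the 4 genes that passed, antigen receptor signalling held 15 that did not, and the median change of all 19 was -0.05. The 4 were 21.1% of the 19, where 3.8% of all genes passed. Since the role groups were chosen with earlier results known, this share is no independent result. In limma 8 of the 19 had an unadjusted p under 0.05, where 17.9% of all genes did. For 8 (42.1%) the groups did not overlap, where 24.7% of all genes were separated. FCRLA, an Fc receptor-like protein kept inside B cells, had 49.6, 41.6 and 54.6 with ATRA, against 76.1, 85.5 and 63.8 with DMSO. Its groups did not overlap, and the log2 difference of -0.63 (95% interval -0.97 to -0.28) was of the size seen for SYK but had an adjusted p of 0.0717 in limma. With a trend and robust eBayes it was 0.0178, and without the dimmer 50% of genes 0.0304. Only these 2 of 15 alternative fits called FCRLA, and in others its adjusted p in limma reached 0.190. CR2, the complement receptor that lowers the threshold of the B cell receptor, averaged 35.0 ± 2.85 with ATRA and 34.9 ± 7.36 with DMSO (SD, n = 3 arrays each), a log2 difference of 0.03.

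The receptor-proximal kinases besides SYK did not pass. LYN, a Src family kinase with activating and inhibitory roles, had 181, 211 and 193 with ATRA, against 195, 250 and 255 with DMSO. The groups overlapped through DMSO replicate 1 (log2 difference -0.25, 95% interval -0.56 to 0.06, adjusted p = 0.388 in limma). BLK, another Src family kinase, was dim at 3.67 and differed by 0.19 with overlapping groups.

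Signalling proteins further down the cascade had differences of both signs, and 0 of 5 passed in limma, where 3.8% of all genes did. An unadjusted p under 0.05 in limma was found for 2, where 17.9% of all genes had one. VAV1, a guanine nucleotide exchange factor, had 703, 752 and 693 with ATRA, against 555, 569 and 588 with DMSO. MALT1, the protease of the NF-kappaB branch, had 305, 313 and 324 with ATRA, against 375, 411 and 408 with DMSO. In each the groups were apart. The log2 difference was 0.33 for VAV1 (95% interval 0.12 to 0.53, adjusted p = 0.101 in limma) and -0.34 for MALT1 (-0.55 to -0.13, adjusted p = 0.0951 in limma). With a trend and robust eBayes the adjusted p was 0.00142 for VAV1 and 0.00421 for MALT1, and without the dimmer 50% of genes it was 0.0253 and 0.0249. Only these 2 of 15 alternative fits called either gene, and in others the adjusted p in limma reached 0.241 for VAV1 and 0.251 for MALT1. BCL10, the partner of MALT1, averaged 65.5 ± 3.69 with ATRA and 77.1 ± 9.61 with DMSO (SD, n = 3 arrays each), a difference of -0.23 with groups that just overlapped (adjusted p = 0.365 in limma). VAV2 and RASGRP3, an exchange factor of RAS, were dim and overlapped between groups, at 0.13 and -0.22.

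Adaptors other than STAP1 and SWAP70 did not pass. BLNK, the central scaffold of the cascade, had 563, 537 and 523 with ATRA, against 632, 623 and 628 with DMSO. These values did not overlap, but the log2 difference was -0.21 (adjusted p = 0.241 in limma, 0.0173 with a trend and robust eBayes). BLNK was called in that 1 of 15 alternative fits, and in others its adjusted p in limma reached 0.404. LAX1, a negative regulator of receptor signalling, averaged 664 ± 74.5 with ATRA and 617 ± 13.4 with DMSO (SD, n = 3 arrays each), and GRB2, the link to the RAS pathway, 535 ± 24.0 with ATRA and 557 ± 3.85 with DMSO. The 95% intervals of their folds, ATRA over DMSO, were 0.901 to 1.28 for LAX1 and 0.835 to 1.10 for GRB2. TCL1A, a coactivator of AKT, BANK1, an adaptor of LYN, and DOK3, an inhibitory adaptor, were dim, with overlapping groups and differences of 0.31, -0.05 and 0.12.

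**Figure D3:**
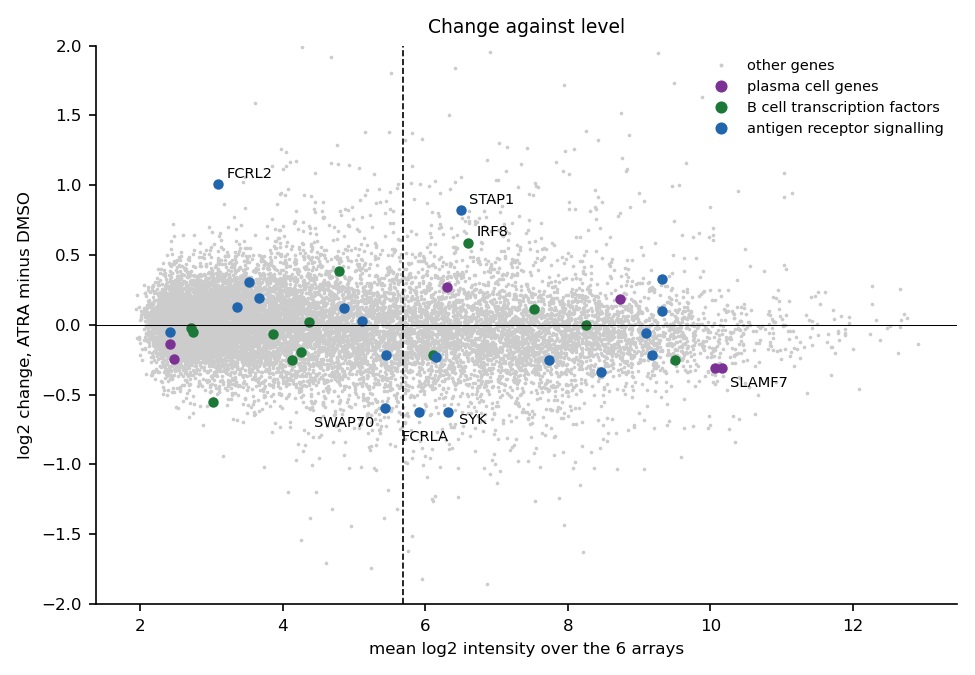
Log2 change (ATRA minus DMSO) against mean log2 intensity over the 6 arrays, with the 38 genes coloured by role over all other genes in grey. The dashed line at 5.69 separates 19 dim genes of the list from 19 brighter ones, FCRL2 lies far in the dim part at 3.10, and 19 genes outside the range of -2 to 2 are not drawn.

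Many of the 38 genes separated the groups by small amounts. For 16 of them (42.1%), 7 higher and 9 lower, every ATRA array lay on 1 side of every DMSO array, where 24.7% of all genes were separated. Bright genes of the whole table were separated more often. Of the 19 brighter genes of the list 12 were separated (63.2%) and 2 passed the test (10.5%), beside 45.1% and 8.45% of all 4782 genes above the same line. Among the 19 dim genes 4 were separated (21.1%) and 2 passed the test (10.5%). The matching shares of all dim genes are not given here, and the 24.7% covers dim and bright genes together. The 12 brighter genes that separated were STAP1, SYK, FCRLA, IRF8, TCF3, VAV1, MALT1, BLNK, SLAMF7, IGLL5, EAF2 and SLAMF6.

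The number of calls moved both ways with the fit. With 1 array left out, 0 to 2 of the 38 genes were called, where 1.39% to 2.13% of all genes were. A trend and robust eBayes called 12 of the 38 genes, 4 higher and 8 lower, where it called 8.92% of all genes. The 12 were the 4 called genes with BLNK, FCRLA, IGLL5, IRF8, MALT1, SLAMF7, TCF3 and VAV1. Leaving out the dimmer 50% of genes gave 9 calls among the 26 genes left, where 15.4% of all genes left were called. In that fit eBayes, without a trend, estimated its variance prior from the brighter genes only.

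**Figure D4:**
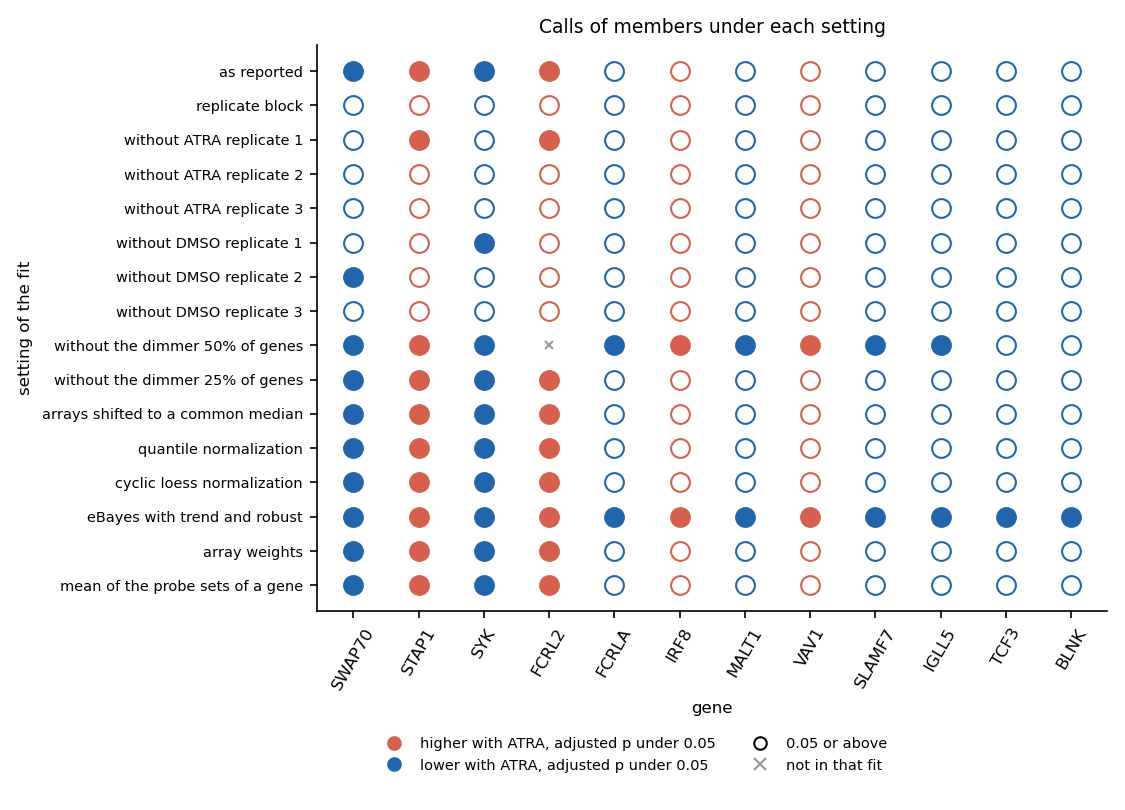
Calls of the 12 genes that passed an adjusted p of 0.05 under at least 1 setting of the fit, with genes on the horizontal axis and settings down the page. Filled circles are calls (red higher, blue lower with ATRA), open circles no call, and the cross marks FCRL2, which was not among the brighter 50% of genes. The first 4 columns hold the genes called as reported, and the row of the trend and robust eBayes holds all 12.

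Other genes of the same roles were taken from lists written from general knowledge, but with earlier results of these data known. The shares called in these lists are therefore no independent result. Of 22 further plasma cell genes 15 were measured, of which 5 rose and 1 fell (40% called, where 3.8% of all genes were, 1.73% higher and 2.07% lower), with a median change of 0.13. CD38, an ectoenzyme and antibody target, was at 1180, 1194 and 1246 with ATRA, against 291, 340 and 310 with DMSO (log2 change 1.95, adjusted p = 0.000145 in limma). CCR10, a chemokine receptor of plasma cells, changed by 1.08, SDC1, the proteoglycan CD138, by 0.84, XBP1, the factor of the secretory programme, by 0.54 and CREB3L2, a factor of secretory pathway genes, by 0.52. IL6R, the receptor of the myeloma growth factor interleukin 6, had 1452, 1418 and 1231 with ATRA, against 1915, 1968 and 1901 with DMSO (-0.50, adjusted p = 0.0401 in limma). IRF4 and MZB1, which support the plasma cell state and antibody folding, did not pass (-0.17 and 0.25, adjusted p = 0.383 and 0.242 in limma).

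Of 20 further B cell transcription factors 19 were measured, of which 1 rose and 1 fell (10.5% called, beside the same 3.8% of all genes, median -0.09). KLF2, a factor of lymphocyte quiescence and homing, rose by 0.48 on the log2 scale (adjusted p = 0.0381 in limma). ETS1, which restrains plasma cell formation in mice, had 48.2, 40.0 and 41.3 with ATRA, against 71.9, 75.5 and 70.6 with DMSO, a change of -0.76 (adjusted p = 0.0106 in limma). Of 64 further genes of antigen receptor signalling 28 were measured, and 1 fell (3.57%, near the 3.8% of all genes, median -0.10). It was CSK, the kinase that keeps LYN and other Src family kinases inactive, at 239, 262 and 240 with ATRA, against 321, 355 and 354 with DMSO (-0.47, adjusted p = 0.0413 in limma). BTK, the Tec family kinase that SYK and LYN activate, averaged 191 ± 22.0 with ATRA and 179 ± 10.5 with DMSO (SD, n = 3 arrays each), with overlapping groups.

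With 1 array left out, CD38, SDC1 and CCR10 passed in all 6 fits and ETS1 in 5, missing without DMSO replicate 1 (adjusted p = 0.0509). XBP1, CREB3L2, IL6R, KLF2 and CSK passed in 0 of the 6 (adjusted p up to 0.0758, 0.124, 0.129, 0.126 and 0.136), CSK and IL6R also not with cyclic loess normalization (0.0518 and 0.0529), and KLF2 not with arrays shifted to a common median (0.0530).

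**Figure D5:**
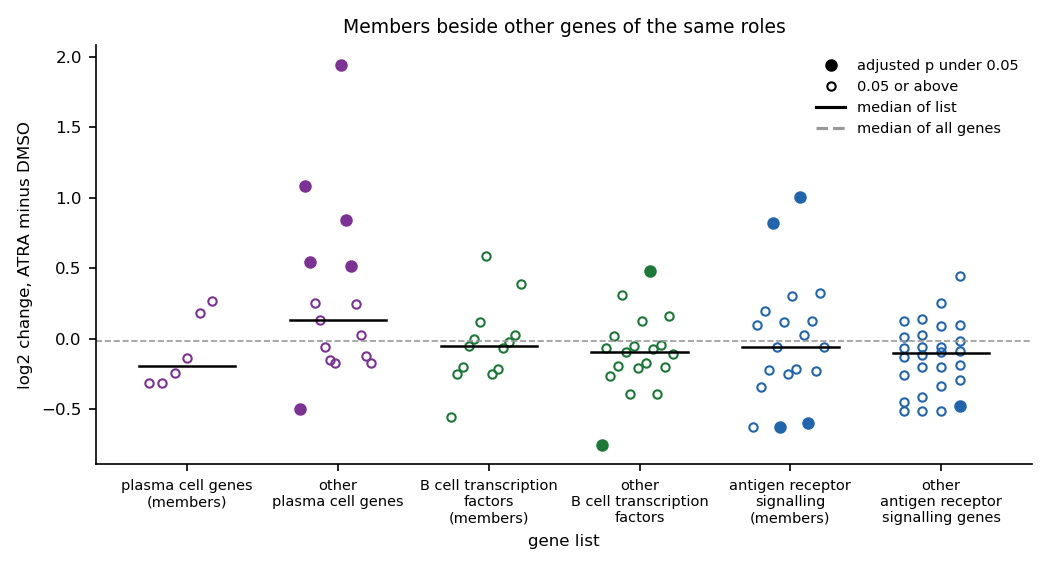
Log2 change (ATRA minus DMSO) of the listed genes, by role, each beside the other genes of that role. Filled circles passed an adjusted p of 0.05, black lines are list medians, from -0.19 for the 6 plasma cell genes of the list to 0.13 for the 15 other plasma cell genes, and the dashed line is the median of all genes.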

How the data were processed

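Total RNA of MM.1S was labelled with biotin by a whole-transcript kit, per the labels' protocols, and hybridised to 1-colour arrays. The deposited values are intensities on a linear scale, normalized by the authors. RMA and limma are named, without version or role, in the submitters' processing notes. A genome build is not given in the sources used here. No pair of the 6 arrays was identical. Arrays correlated at 0.990 to 0.992 within groups and 0.985 to 0.987 between groups across genes, and array medians lay between 9.40 and 9.76.

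Values were turned to log2. Of 53617 probe sets 16098 (30.0%) had 1 symbol, 0 had several and 37519 are unnamed here. Each of the 14884 genes was tested by its probe set of highest mean with limma 3.58.1 in R 4.3.3 (lmFit, eBayes, two-sided, no block, no filter), Benjamini-Hochberg adjusted over all genes at 0.05. Each of the 38 genes had 1 probe set. Folds are ratios of geometric means. The steps were also run on simulated data with independent noise and known changes. That cannot show the effect of pairing or of technical replicates. The number of arrays limits the precision.

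The genes, role groups and lists were chosen with earlier results of these data known. Named with full values were the genes past the threshold and, per role, the 4 others of largest difference among those above the line for dim probe sets. Genes of highest intensity per role, and of the further lists those that passed, were named as well. BCL6, SPIB, BCL10, GRB2, CR2, BTK, IRF4, MZB1, KRT18 and the T cell genes of the closing section were given values after these were seen. Promoters are RefSeq's. Alternatives were the replicate block, leaving out each array, leaving out dim genes, 3 other normalizations, a trend and robust eBayes, array weights and the mean of probe sets.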

Additional observations from a re-analysis of the deposited data

How the results depend on the processing

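As reported, 4 of the 38 genes passed, all 4 of antigen receptor signalling, with 0 plasma cell genes, 0 B cell transcription factors and 565 genes in all. A trend and robust eBayes gave 12 (8 signalling, 2 plasma cell, 2 transcription factors) and 1327 in all, and leaving out the dimmer 50% of genes gave 9 (2 plasma cell, 1 transcription factor) and 1143 in all. With 1 array left out, 0 to 2 of the 38 passed, 0 to 2 of the signalling genes and 207 to 317 of all genes. Fewer arrays give less power. Replicate numbers are shared by the groups but the labels do not pair them, and deviations from group means correlated at 0.009 to 0.017 between arrays of the same number. Each of the 6 arrays correlated best with its own number, a hint from the data and not from the design. With the replicate block 0 of the 38 passed, 0 signalling genes and 200 in all. The adjusted p in limma was then 0.0512 for STAP1, 0.0584 for FCRL2, 0.0653 for SWAP70 and 0.0988 for SYK. Of the further genes CD38 and SDC1 passed with the block, and CCR10 (0.0542), ETS1 (0.0550), XBP1 (0.0808), CREB3L2 (0.108), IL6R (0.107), CSK (0.107) and KLF2 (0.123) did not. The 3 other normalizations, array weights, the mean of probe sets and leaving out the dimmer 25% kept the same 4 calls. Of 553 values of the 38 genes under alternatives, 492 kept direction and side of the threshold, 24 lost and 14 gained a call and 23 changed sign, none of these from a called gene. Sign changes came with shifted medians in CR2 (-0.00076) and POU2F2 (-0.0027), with quantile normalization in POU2F2 (-0.0055) and ZBTB38 (0.031), and in ZBTB38 with cyclic loess (0.048) and array weights (0.0014). Arrays left out gave -0.13 to 0.020 for BANK1, -0.10 to 0.41 for VAV2, -0.15 to 0.16 for CR2, -0.062 to 0.14 for POU2F2 and -0.055 to 0.034 for ZBTB38. They gave -0.16 to 0.19 for EBF1, -0.21 to 0.028 for ZBTB20, -0.42 to 0.068 for SPI1, -0.30 to 0.10 for SLAMF1 and -0.45 to 0.049 for FCRL5. Outside the 38 genes, the T cell marker TRAT1 also changed sign, at -0.17 to 0.0097. The cause was not tested.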

Other observations

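On the MM.1S arrays 3 of the 7 measured T cell markers lay above the line for dim probe sets. The line is a percentile of the 37 markers of other cell types, so that some of them lie above it by construction. In all 4 did, and the one besides these 3 was the epithelial marker KRT18 at a mean log2 level of 7.15. CD28, a costimulatory receptor of T cells that plasma cells can also carry, averaged 1757 ± 38.2 with ATRA and 1950 ± 6.26 with DMSO (SD, n = 3 arrays each), and TRAT1, a T cell receptor adaptor, 587 ± 74.8 with ATRA and 617 ± 27.3 with DMSO. THEMIS, an adaptor of T cell development, had 37.5, 63.0 and 96.9 with ATRA, against 99.5, 115 and 125 with DMSO, and its groups did not overlap (log2 difference -0.88, adjusted p = 0.198 in limma, 0.0536 to 0.382 over the alternatives). The 4 other T cell markers, CD5, CD6, CD8A and CD8B, lay under the line for dim probe sets.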
